A study of Mus musculus with 6 samples.

Results

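The genes described here are 48 mouse genes of the transforming growth factor beta (TGF-β) and bone morphogenetic protein (BMP) pathways, measured in cultured skin fibroblasts with and without a drug that inhibits DNA methylation. They were chosen by name: 12 ligands, 12 receptors, 7 Smads, 3 nuclear corepressors, 4 Id genes, 6 extracellular antagonists and 4 latent TGF-β binding proteins. The array carries 1 or more probe sets for each gene, and a gene was read at its probe set of highest mean signal among those that carry its symbol alone. The 48 symbols were carried by 103 probe sets, and they are 48 of the 18193 genes with such a probe set. Of the 48, 42 passed the filter on low signal, beside 13223 of all genes. Bmp2, Bmp5, Bmp7, Gdf10, Acvr2b and Nog did not pass and were not tested.

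TGF-β, activin and BMP ligands bind pairs of type I and type II receptor kinases on the cell surface, and the receptors phosphorylate Smad proteins, which move to the nucleus with Smad4 and switch target genes on or off. TGF-βs and activins act mainly through Smad2 and Smad3, and BMPs through Smad1 and Smad5, with the Id genes among their best known targets. Latent TGF-β binding proteins hold TGF-β in the matrix, antagonists such as gremlin and follistatin trap ligands outside the cell, and in fibroblasts TGF-β is known for driving collagen production and the change to contractile myofibroblasts.

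The cells came from mice with an X-linked GFP transgene, driven by a chicken β-actin promoter and a CMV enhancer, in a mixed 129/ICR background. Transgenic males were crossed with wild-type BL6 females, and the samples carry the strain label B6. Dermal fibroblasts were grown out of the skin of newborns aged 0 to 2 days, used at passage 4, and sorted at the start for cells without GFP. Per the study's design such cells carry the transgene on the inactive X, which can hold only for female cells. There were 3 groups of 2 arrays, and the study asked which genes the drug affected and whether sorting for GFP enriches affected cells.

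Control cells were left untreated over the same 48 hours and 24 hours of recovery and were not sorted again. Their labels give replicate 1 as female and replicate 2 as of mixed sex. Both other groups were female cells given 4 μM 5-aza-2'-deoxycytidine for 48 hours, renewed every 24 hours, and left to recover for 24 hours. They were then sorted into cells still without GFP (GFP-negative) and cells that had switched it on (GFP-positive). The titles, sources and treatment protocols of these samples name the drug treatment, although their descriptions use the word untreated. The treated groups thus differ from control by the drug and by a further sort, which cannot be told apart. In replicate 2 they also differ by sex, since that control is of mixed sex, and this cannot be told apart there either. The design text states that the drug does not reach every cell, so each treated group may mix cells it did and did not demethylate. The labels call the replicates biological but do not say whether they came from separate cultures or animals, so the p-values speak only of how these samples vary. In RNA pooled from many cells, sorted again or not, fewer cells of a type and less RNA per cell cannot be told apart.

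Each array gave 1 signal per probe set, scaled here to a 2% trimmed mean of 500. The deposited values of GFP-negative replicate 2 and GFP-positive replicate 2 had trimmed means of 62.0 and 50.5 and were multiplied by 8.06 and 9.90. After scaling, the lower quartile of signal was 38.7 to 42.6 on the 3 arrays of replicate 1 and 19.2 to 22.6 on the 3 arrays of replicate 2. The arrays of 1 replicate number are therefore called an array set. Differences that passed at the brightest probe set of a member are also given within sets 1 and 2, as are some others. Differences are on the log2 scale after adding 30.64 to the signal, which understates those of dim genes. An error after ± is the moderated SE of the blocked fit over all 6 arrays. It draws a gene's own spread toward that of probe sets of like signal, so it can be smaller than the gene's own SE. Summed signal of 11 fibroblast markers, all above the filter, was 200730 to 204950 on control, 162080 to 171350 on GFP-negative and 159630 to 160270 on GFP-positive arrays. Vim and S100a4 were higher on GFP-positive than control arrays within each replicate number, and the other markers were lower. Vim was at 36593 and 45534 on control and 40369 and 53040 on GFP-positive arrays. Col3a1 was at 31909 and 39808 on control and 20049 and 17471 on GFP-positive arrays. Of 8 skeletal muscle markers 4 passed the filter, and their summed signal over all 8 was 4504 to 9612, 13336 to 16695 and 13175 to 13198 in the same order, most of it from Acta1, with Myog and Myf5 below the filter. Of 6 adipocyte markers 4 had a probe set and 3 passed, Adipoq being below, and they summed to 2674 to 3687, 1652 to 2074 and 1518 to 2183. Lpl was at 3093 and 843 on control, 1128 and 496 on GFP-negative and 857 and 842 on GFP-positive arrays. Within each set Pparg was higher and Fabp4 lower on GFP-positive than control arrays. Of 10 keratinocyte markers 9 had a probe set and 5 passed, Krt14 and Krt1 being below, and they summed to 735 to 1153, 1156 to 1332 and 1201 to 1701. Among these, Lor was at 372 and 107 on control, 656 and 331 on GFP-negative and 798 and 325 on GFP-positive arrays. Of the 5 that passed, Lor and Dsp were higher on treated than control arrays within each set, and Trp63 was lower. Krt5 and Krt10 differed in direction between sets or groups. The part of these cell types in the results was not tested.

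The members were compared between groups with limma, with p-values adjusted over all 27022 probe sets that passed the filter. Without the array set in the model, 0 of 42 members passed an adjusted p of 0.05 in either treated group against control, beside 0.122% of all probe sets for GFP-positive and 0.0296% for GFP-negative cells. At an unadjusted p under 0.05 there were 11 members in GFP-positive cells (26.2%, all probe sets 7.04%) and 9 in GFP-negative cells (21.4%, all probe sets 5.07%). With the array set as a block, which takes the difference between sets out of the spread, 9 of 42 members passed in each comparison, 5 higher and 4 lower in both. The share of members was 21.4%, beside 6.21% of all probe sets in GFP-positive cells (3.15% higher and 3.06% lower) and 3.57% in GFP-negative cells (1.9% higher and 1.68% lower). Among the brightest probe sets of all genes, read in the same way as the members, it was 7.77% and 4.53%. The members were chosen with earlier results of these data known, so these shares describe them and do not test the set. In the following, "rose" and "fell" are used of genes that passed with the block, and the adjusted p without the block is given beside it. The block calls rest on a model in which the spread follows a trend with signal: without that trend 0 members passed in either comparison. Beside each call of a member at its brightest probe set stands the range of its blocked adjusted p over the other settings run, meaning other processing choices and fits that leave out 1 array. No such range is given for other probe sets or for genes outside the 48, whose calls were not followed singly over those settings.

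Members were bright genes here, with a median mean signal of 1563 beside 495.1 for all genes read in the same way. Their differences had no common direction. The median difference was 0.04 in GFP-positive and 0.06 in GFP-negative cells, beside 0.04 for all probe sets in both. Of 42 members, 22 were above 0 in GFP-positive and 24 in GFP-negative cells. The arrays of GFP-positive and control cells did not overlap for 17 members (40.5%, all probe sets 32.2%), and those of GFP-negative and control cells for 19 (45.2%, all probe sets 28.6%). Both comparisons share the control arrays.

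**Figure D1:**
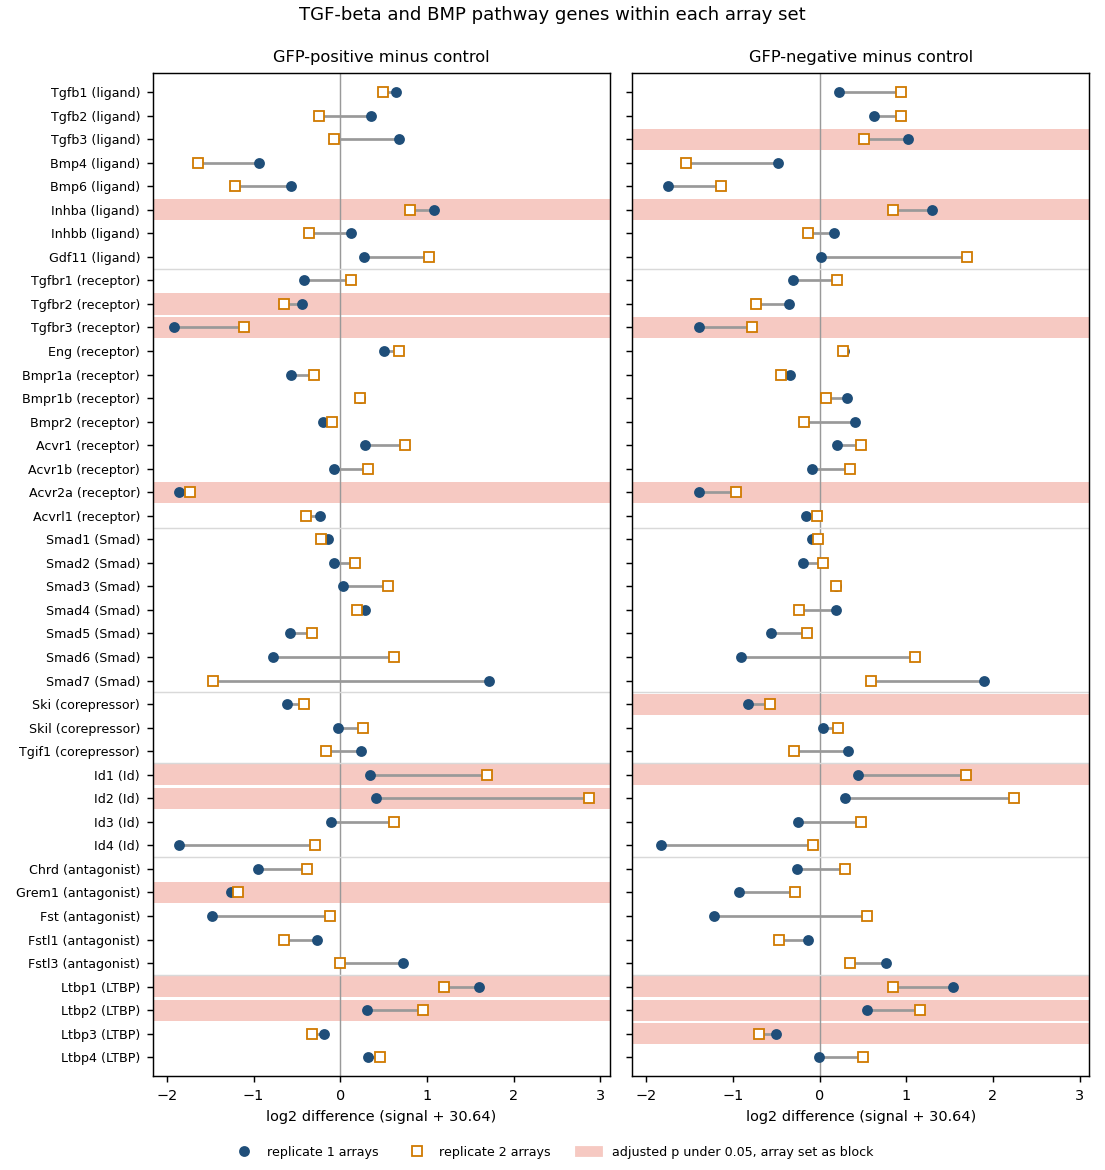
Log2 difference from control (x axis) of the 42 tested members, ordered by role (y axis), in GFP-positive (left) and GFP-negative (right) cells; filled circles are replicate 1 arrays, open squares replicate 2 arrays, and shaded bands mark the 9 members per comparison that passed with the array set as a block. Inhba and Ltbp1 lie right of 0 and Acvr2a and Tgfbr3 left of 0 in both sets of both panels, while Smad7 lies on opposite sides in the left panel.

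Because the drug acts on DNA methylation, which in mammals sits mostly at CpG dinucleotides, the promoters of 5 members are shown: 3 that rose (Inhba, Ltbp1, Id2) and 2 that fell (Acvr2a, Grem1) in GFP-positive cells. Each is the 250 bases before a RefSeq start on build GRCm38.p6, read 5′ to 3′ on the gene's strand, in lower case with every CpG in capitals. Methylation itself was not measured on these arrays.
Inhba: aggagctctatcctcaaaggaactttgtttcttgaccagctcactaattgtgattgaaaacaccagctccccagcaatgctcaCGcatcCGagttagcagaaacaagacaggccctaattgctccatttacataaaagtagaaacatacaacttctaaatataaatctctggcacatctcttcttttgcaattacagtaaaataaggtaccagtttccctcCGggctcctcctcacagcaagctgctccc
Ltbp1: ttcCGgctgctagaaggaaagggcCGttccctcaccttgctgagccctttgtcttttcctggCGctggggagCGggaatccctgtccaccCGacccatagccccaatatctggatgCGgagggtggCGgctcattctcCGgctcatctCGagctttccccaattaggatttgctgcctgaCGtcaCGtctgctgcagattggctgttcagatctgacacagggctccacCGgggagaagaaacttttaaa
Id2: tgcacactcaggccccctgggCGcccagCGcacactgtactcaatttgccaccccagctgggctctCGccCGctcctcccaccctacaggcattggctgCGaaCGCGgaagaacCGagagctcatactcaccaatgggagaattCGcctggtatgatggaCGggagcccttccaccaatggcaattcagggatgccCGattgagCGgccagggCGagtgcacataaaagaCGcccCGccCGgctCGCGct
Acvr2a: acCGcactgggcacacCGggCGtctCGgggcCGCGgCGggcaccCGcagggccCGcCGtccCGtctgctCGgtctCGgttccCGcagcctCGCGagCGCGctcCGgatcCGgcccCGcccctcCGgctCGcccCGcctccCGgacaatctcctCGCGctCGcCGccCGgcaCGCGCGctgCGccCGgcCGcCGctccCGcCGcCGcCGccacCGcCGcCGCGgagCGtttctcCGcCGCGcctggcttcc
Grem1: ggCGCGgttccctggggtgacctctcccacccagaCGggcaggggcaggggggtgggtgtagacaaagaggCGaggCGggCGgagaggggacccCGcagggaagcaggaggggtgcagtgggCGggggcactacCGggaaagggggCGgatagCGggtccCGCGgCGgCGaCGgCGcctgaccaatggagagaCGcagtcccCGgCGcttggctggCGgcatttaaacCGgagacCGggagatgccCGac
The Inhba promoter (chr13:16011601-16011850, plus strand) held 3 CpGs and that of Ltbp1 (chr17:75005279-75005528, plus strand) 12, and neither counted as CpG-rich, meaning at least 50% GC and an observed over expected CpG ratio of at least 0.6. Ltbp1 was just under that ratio, and its other listed start held 7. The Id2 promoter (chr12:25096093-25096342, minus strand) held 18, that of Acvr2a (chr2:48813859-48814108, plus strand) 49 and that of Grem1 (chr2:113758649-113758898, minus strand) 24, and these 3 were CpG-rich. Ltbp2, which also rose, held 16, and of the other members that fell Tgfbr2 held 12, Ski 53 and Ltbp3 only 2. The 4 members with an entry that rose thus held 3 to 18 and the 5 that fell 2 to 53. The median count was 21 over all member promoters listed and 6 over the promoters of all genes. A link between CpG count and direction was not tested. RefSeq entries were found for 36 of the 48 members, with 48 promoters, of which 33 (68.8%) were CpG-rich, beside 31% of 32851 promoters of all genes. The Smad motif CAGAC or its reverse complement GTCTG was in 22 of the 48 promoters (45.8%, all promoters 42.2%) and the GC-rich BMP Smad motif GGCGCC, its own reverse complement, in 11 (22.9%, all promoters 9.59%). These motifs can share only an end base, and a match describes letters in the window, not a site in use. GGCGCC itself holds a CpG, and its share was not compared with promoters of like CpG content.

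Among the ligands, the activin subunit gene Inhba rose in both treated groups. Inhba (probe set 1422053_at, chromosome 13) encodes the chain that pairs with itself to form activin A. Its signal was 3575 and 5574 on the control arrays, 8804 and 10056 on the GFP-negative arrays and 7609 and 9778 on the GFP-positive arrays. All 4 treated arrays were above both control arrays, and the treated groups overlapped each other. The difference was 0.95 ± 0.14 in GFP-positive cells, 1.08 in set 1 and 0.81 in set 2 (a 1.93-fold difference), with an adjusted p of 0.0022 with the block and 0.397 without. In GFP-negative cells it was 1.07 ± 0.14, 1.29 in set 1 and 0.85 in set 2 (2.1-fold; adjusted p = 0.0014 with the block, 0.506 without). Leaving out any 1 of the 6 arrays kept both calls. For Inhba the blocked p ran from 6.75e-05 to 0.179 in GFP-positive cells and from 2.77e-05 to 0.206 in GFP-negative cells over those settings. Inhbb, the other activin chain, differed by -0.12 and 0.02 and passed in neither.

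Tgfb3 (probe set 1417455_at, chromosome 12), 1 of the 3 TGF-β isoforms, rose in GFP-negative cells. Its signal was 4268 and 3403 on the control arrays, 8666 and 4858 on the GFP-negative arrays and 6844 and 3248 on the GFP-positive arrays. Both GFP-negative arrays were above both controls, while GFP-positive replicate 2 was below them. The difference was 0.76 ± 0.17 in GFP-negative cells, 1.02 in set 1 and 0.51 in set 2 (adjusted p = 0.032 with the block, 0.9998 without), and 0.31 ± 0.17 in GFP-positive cells, 0.68 in set 1 and -0.07 in set 2 (adjusted p = 0.35 with the block). The GFP-negative call was lost without control replicate 1 (0.45, adjusted p = 0.131), without GFP-negative replicate 1 (0.70, adjusted p = 0.168) and without GFP-negative replicate 2 (0.83, adjusted p = 0.0778). For Tgfb3 the blocked p ran from 0.000334 to 0.331 in GFP-negative cells over those settings.

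Tgfb2, the second isoform, was read by 4 probe sets above the filter. At the brightest, its signal was 1193 and 1405 on the control arrays, 1863 and 2720.1 on the GFP-negative arrays and 1536 and 1180.5 on the GFP-positive arrays. GFP-negative arrays were above all 4 others, with a difference from control of 0.78, 0.63 in set 1 and 0.94 in set 2, that did not pass (adjusted p = 0.0623 with the block). Of its other probe sets 2 rose in GFP-negative cells, by 1.02 (adjusted p = 0.0141 with the block, 0.623 without) and 0.84 (adjusted p = 0.0273 with the block, 0.785 without). Tgfb1, the isoform found in most tissues, differed by 0.57 ± 0.20 (SE, with the block) and 0.58 ± 0.20 in GFP-positive and GFP-negative cells and did not pass.

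The BMP ligands were dim in these cells. Bmp2, Bmp5, Bmp7 and Gdf10 stayed below the filter of 67.71. Bmp4 just passed it, and its signal was 157 and 107 on the control arrays, 104 and 16.9 on the GFP-negative arrays and 67.3 and 13.9 on the GFP-positive arrays. The treated arrays were all below both controls, at differences of -1.28 and -1.01 that did not pass (adjusted p = 0.19 and 0.382 with the block). Bmp6 was at 218 and 97.4 on the control arrays, 43.7 and 27.4 on the GFP-negative arrays and 138 and 24.7 on the GFP-positive arrays. Its differences of -0.89 and -1.44 did not pass either. Gdf11, related to myostatin, differed by 0.65 and 0.86 with an SE of 0.42 and did not pass.

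Of the 4 latent TGF-β binding proteins, 2 rose in GFP-positive cells, and 2 rose and 1 fell in GFP-negative cells. Ltbp1 (probe set 1448870_at, chromosome 17), which anchors latent TGF-β in the matrix, rose in both. Its signal was 666 and 1358 on the control arrays, 1999 and 2467 on the GFP-negative arrays and 2073 and 3156 on the GFP-positive arrays. All 4 treated arrays were above both controls. The difference was 1.40 ± 0.18 in GFP-positive cells, 1.59 in set 1 and 1.20 in set 2 (2.63-fold; adjusted p = 0.000908 with the block, 0.341 without), and 1.20 ± 0.18 in GFP-negative cells, 1.54 in set 1 and 0.85 in set 2 (adjusted p = 0.00371 with the block, 0.638 without). Both calls were kept when any 1 array was left out. For Ltbp1 the blocked p ran from 1.94e-05 to 0.139 in GFP-positive cells and from 0.00012 to 0.221 in GFP-negative cells over those settings.

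Ltbp2 (probe set 1418061_at, chromosome 12), a matrix protein of elastic fibres that does not bind latent TGF-β, had signals of 5861 and 2111 on the control arrays, 8594 and 4758 on the GFP-negative arrays and 7285 and 4132 on the GFP-positive arrays. The control and treated arrays overlapped, since set 2 was lower throughout, and the treated arrays were above control within each set. Ltbp2 rose by 0.86 ± 0.16 in GFP-negative cells, 0.55 in set 1 and 1.16 in set 2 (adjusted p = 0.0161 with the block, 0.9998 without), and by 0.64 ± 0.16 in GFP-positive cells, 0.31 in set 1 and 0.96 in set 2 (adjusted p = 0.0458 with the block, 0.975 without). The GFP-positive call was lost without control replicate 2 (0.32, adjusted p = 0.315), GFP-positive replicate 1 (0.81, adjusted p = 0.0798) or GFP-positive replicate 2 (0.47, adjusted p = 0.434). The GFP-negative call was lost without control replicate 2 (0.54, adjusted p = 0.0589) or GFP-negative replicate 2 (0.71, adjusted p = 0.134). For Ltbp2 the blocked p ran from 0.000633 to 0.434 in GFP-positive cells and from 9.26e-05 to 0.29 in GFP-negative cells over those settings.

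Ltbp3 (probe set 1438312_s_at, chromosome 19), which also binds latent TGF-β, went the other way. Its signal was 3979.9 and 2618 on the control arrays, 2805 and 1608 on the GFP-negative arrays and 3498 and 2079 on the GFP-positive arrays, with overlap between the groups and the GFP-negative arrays lowest within each set. Ltbp3 fell in GFP-negative cells, with a difference of -0.60 ± 0.14, -0.50 in set 1 and -0.69 in set 2 (adjusted p = 0.0376 with the block, 0.9998 without). The call was lost without control replicate 2 (-0.51, adjusted p = 0.15), without either GFP-negative array (-0.66, adjusted p = 0.156, and -0.54, adjusted p = 0.289) and without either GFP-positive array (-0.60, adjusted p = 0.0503, and -0.60, adjusted p = 0.0513). For Ltbp3 the blocked p ran from 0.0258 to 0.313 in GFP-negative cells over those settings. In GFP-positive cells the difference was -0.26 ± 0.14 and did not pass. The next brightest Ltbp3 probe set differed by -0.58 in GFP-negative cells and did not pass (adjusted p = 0.104 with the block), nor did the dimmer ones. Ltbp4 differed by 0.39 and 0.25 and passed in neither.

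**Figure D2:**
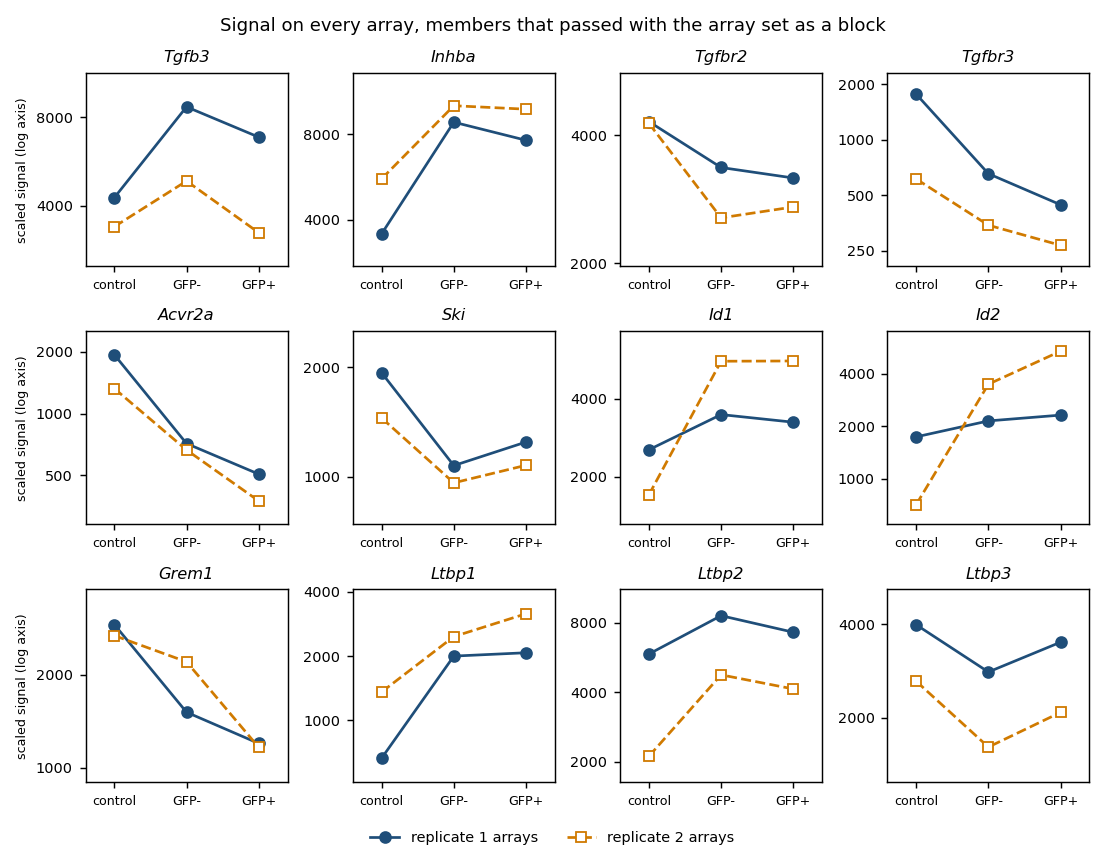
Scaled signal (y axis, log scale) on every array of the 12 members that passed with the array set as a block in either comparison, by group (x axis: control, GFP-negative, GFP-positive); filled circles with solid lines join replicate 1 arrays and open squares with dashed lines replicate 2 arrays. Acvr2a and Tgfbr3 run down and Inhba and Ltbp1 run up from control to the treated groups in both sets, while Id2 rises mainly in replicate 2, from 711 to 5399.

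Receptor genes fell or did not pass, and none rose: 3 of 11 tested fell in GFP-positive and 2 in GFP-negative cells. The lowest adjusted p of any member was that of Acvr2a (probe set 1437382_at, chromosome 2), a type II receptor for activins. Its signal was 1929.8 and 1322 on the control arrays, 715 and 665 on the GFP-negative arrays and 508 and 376 on the GFP-positive arrays. The groups did not overlap, with controls highest and GFP-positive arrays lowest. The difference was -1.80 ± 0.18 in GFP-positive cells, -1.86 in set 1 and -1.73 in set 2 (3.48-fold lower; adjusted p = 0.00023 with the block, 0.0921 without). In GFP-negative cells it was -1.18 ± 0.18, -1.40 in set 1 and -0.96 in set 2 (2.26-fold lower; adjusted p = 0.00512 with the block, 0.467 without). The GFP-negative call was lost without GFP-negative replicate 1 (-0.99, adjusted p = 0.0657). For Acvr2a the blocked p ran from 4.42e-06 to 0.0888 in GFP-positive cells and from 0.00371 to 0.18 in GFP-negative cells over those settings. A second Acvr2a probe set fell as well, with differences of -0.997 in GFP-positive and -0.92 in GFP-negative cells (adjusted p = 0.013 and 0.0271 with the block, 0.371 and 0.623 without).

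Tgfbr3 (probe set 1433795_at, chromosome 5), the coreceptor betaglycan that presents TGF-β2 and binds inhibin, fell in both groups. Its signal was 1767 and 612 on the control arrays, 654 and 343 on the GFP-negative arrays and 443 and 267 on the GFP-positive arrays. Control replicate 1 stood far above the rest, and control replicate 2 lay below GFP-negative replicate 1 but above both GFP-positive arrays. The difference was -1.52 ± 0.23 in GFP-positive cells, -1.92 in set 1 and -1.11 in set 2 (2.86-fold lower; adjusted p = 0.00295 with the block, 0.539 without), and -1.09 ± 0.23 in GFP-negative cells, -1.39 in set 1 and -0.78 in set 2 (adjusted p = 0.026 with the block, 0.9998 without). The GFP-negative call was lost without control replicate 1 (-0.73, adjusted p = 0.176) and without either GFP-negative array (-0.98, adjusted p = 0.159, and -1.19, adjusted p = 0.0597). For Tgfbr3 the blocked p ran from 0.000174 to 0.143 in GFP-positive cells and from 0.00302 to 0.255 in GFP-negative cells over those settings. Its second probe set passed in neither comparison (adjusted p = 0.125 and 0.655 with the block).

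Tgfbr2 (probe set 1426397_at, chromosome 9), the type II receptor for TGF-β, fell in GFP-positive cells. Its signal was 4309.6 and 4269 on the control arrays, 3361 and 2559 on the GFP-negative arrays and 3176 and 2714 on the GFP-positive arrays, with all treated arrays below both controls. The difference was -0.54 ± 0.14 in GFP-positive cells, -0.44 in set 1 and -0.65 in set 2 (adjusted p = 0.0464 with the block, 0.675 without), and -0.54 ± 0.14 in GFP-negative cells, -0.36 in set 1 and -0.73 in set 2, where it did not pass (adjusted p = 0.0641). The call was lost without control replicate 2 (-0.40, adjusted p = 0.258) and without either GFP-positive array (-0.55, adjusted p = 0.18, and -0.53, adjusted p = 0.285). For Tgfbr2 the blocked p ran from 0.0182 to 0.297 in GFP-positive cells over those settings. Its second probe set fell in GFP-negative cells, with a difference of -1.04 (adjusted p = 0.0368 with the block, 0.623 without), and did not pass in GFP-positive cells (-0.73, adjusted p = 0.104 with the block).

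The other tested receptors passed in neither comparison. Their differences in GFP-positive cells ran from -0.44 for Bmpr1a, a type I BMP receptor, to 0.59 for Eng, the coreceptor endoglin. Tgfbr1, the type I partner of Tgfbr2, differed by -0.15 (95% interval -0.53 to 0.24 with the block) and -0.05 (-0.44 to 0.33). Bmpr2, the type II BMP receptor, differed by -0.15 (-0.53 to 0.24) and 0.11 (-0.27 to 0.49). Eng and Acvrl1 are typical of endothelium: of 10 endothelial markers 6 passed the filter, Pecam1, Tie1, Cldn5 and Vwf did not, and the summed signal was 1171 to 1196 on control, 1001 to 1539 on GFP-negative and 945 to 1436 on GFP-positive arrays.

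Of the 7 Smads, 0 passed at the probe set used here in either comparison, with or without the block. Smad2 and Smad3, which carry TGF-β and activin signals, differed by 0.05 (95% interval -0.30 to 0.40 with the block) and 0.29 (-0.08 to 0.67) in GFP-positive cells. The common partner Smad4 differed by 0.24 (-0.08 to 0.56). Smad1 and Smad5, which carry BMP signals, differed by -0.18 (-0.52 to 0.16) and -0.46 (-0.90 to -0.02). In GFP-negative cells these 5 differed by -0.35 to 0.19.

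The inhibitory Smads feed back on the pathway, and their readings depended on the array or the probe set. Smad6, which restrains BMP signals, differed by -0.78 in set 1 and 0.62 in set 2 in GFP-positive cells. Smad7, which restrains both branches, had signals of 966 and 322 on the control arrays, 3681 and 501 on the GFP-negative arrays and 3243 and 97.0 on the GFP-positive arrays at its brightest probe set. In set 1 both treated arrays were above control, and in set 2 the GFP-positive array was the lowest of all 6. The difference of 0.12 in GFP-positive cells was 1.72 in set 1 and -1.47 in set 2 (adjusted p = 0.925 with the block). The other Smad7 probe set gave 873 and 437 on the control arrays, 1442 and 1322 on the GFP-negative arrays and 1604 and 1339 on the GFP-positive arrays. At that set all treated arrays were above both controls, and Smad7 rose by 1.20 in GFP-positive and 1.12 in GFP-negative cells (adjusted p = 0.00653 and 0.0133 with the block, 0.371 and 0.622 without). The brightest set is of a type whose probes can also bind other transcripts, and which of the sets reads Smad7 was not tested.

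Of the nuclear corepressors, Ski fell in GFP-negative cells. Ski (probe set 1426373_at, chromosome 4) binds Smads and blocks activation of their targets, and its signal was 1931 and 1451 on the control arrays, 1075 and 963 on the GFP-negative arrays and 1247 and 1077 on the GFP-positive arrays. All treated arrays were below both controls. The difference was -0.70 ± 0.16 in GFP-negative cells, -0.83 in set 1 and -0.58 in set 2 (adjusted p = 0.0353 with the block, 0.759 without), and -0.52 ± 0.16 in GFP-positive cells, -0.62 in set 1 and -0.42 in set 2, where it did not pass (adjusted p = 0.0839). The call was lost without control replicate 1 (-0.59, adjusted p = 0.145) and without either GFP-negative array (-0.63, adjusted p = 0.272, and -0.78, adjusted p = 0.128). For Ski the blocked p ran from 0.0278 to 0.272 in GFP-negative cells over those settings. Skil, its relative SnoN, did not pass at its brightest probe set (0.12 and 0.13). Its second probe set gave 189 and 325 on the control arrays, 425 and 527 on the GFP-negative arrays and 514 and 1055 on the GFP-positive arrays. That set rose in GFP-positive cells by 1.46 (adjusted p = 0.0039 with the block, 0.383 without) and did not pass in GFP-negative cells (0.85, adjusted p = 0.075). Tgif1 differed by 0.03 and 0.02.

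The Id genes, which encode inhibitors of basic helix-loop-helix factors, split. Id1 and Id2 rose, Id3 did not pass, and Id4 was lower without passing. Id1 (probe set 1425895_a_at, chromosome 2) had signals of 2543 and 1708 on the control arrays, 3471 and 5566 on the GFP-negative arrays and 3244 and 5579 on the GFP-positive arrays. All treated arrays were above both controls, and the gap was wider in set 2. Id1 rose by 1.02 ± 0.26 in GFP-positive cells, 0.35 in set 1 and 1.69 in set 2 (adjusted p = 0.0429 with the block, 0.539 without), and by 1.07 ± 0.26 in GFP-negative cells, 0.44 in set 1 and 1.69 in set 2 (adjusted p = 0.0494 with the block, 0.717 without). Without control replicate 2, the mixed-sex array, both calls were lost (0.37, adjusted p = 0.266 in GFP-positive and 0.42, adjusted p = 0.232 in GFP-negative cells). They were lost too without replicate 2 of the treated group (0.66, adjusted p = 0.448, and 0.78, adjusted p = 0.276). For Id1 the blocked p ran from 1.89e-06 to 0.448 in GFP-positive cells and from 1.93e-06 to 0.368 in GFP-negative cells over those settings.

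Id2 (probe set 1435176_a_at, chromosome 12) had signals of 1739 and 711 on the control arrays, 2147 and 3489 on the GFP-negative arrays and 2318 and 5399 on the GFP-positive arrays. The lowest array was control replicate 2, the mixed-sex array, and the highest GFP-positive replicate 2. Id2 rose by 1.64 ± 0.42 in GFP-positive cells, 0.41 in set 1 and 2.87 in set 2 (3.12-fold; adjusted p = 0.0418 with the block, 0.464 without). In GFP-negative cells the difference of 1.27 ± 0.42, 0.30 in set 1 and 2.25 in set 2, did not pass (adjusted p = 0.143 with the block). The GFP-positive call was lost without control replicate 2 (0.54, adjusted p = 0.139) and without GFP-positive replicate 2 (0.90, adjusted p = 0.475). For Id2 the blocked p ran from 1.48e-08 to 0.475 in GFP-positive cells over those settings. A second probe set of Id2 rose in GFP-positive cells as well, by 1.43 (adjusted p = 0.0312 with the block, 0.677 without), 0.45 in set 1 and 2.42 in set 2. The third and dimmest Id2 probe set did not pass there. It differed by 0.51, 0.76 in set 1 and 0.25 in set 2 (adjusted p = 0.459 with the block).

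Id3 differed by 0.26 and 0.11 and passed in neither. Id4 had signals of 3846 and 2538 on the control arrays, 1063 and 2409.7 on the GFP-negative arrays and 1034 and 2068 on the GFP-positive arrays. Treated arrays were below both controls in the whole, but nearly all of the gap was in set 1: the difference was -1.86 in set 1 and -0.29 in set 2 in GFP-positive and -1.82 in set 1 and -0.07 in set 2 in GFP-negative cells (adjusted p = 0.0792 and 0.162 with the block). Its other 2 probe sets showed the same split between sets.

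Of the 5 tested antagonists, 1 fell and 0 rose. Grem1 (probe set 1425357_a_at, chromosome 2), which encodes gremlin, a secreted BMP antagonist, fell in GFP-positive cells. Its signal was 2912 and 2682 on the control arrays, 1515 and 2207 on the GFP-negative arrays and 1199.8 and 1166 on the GFP-positive arrays. The groups did not overlap: controls were highest, GFP-negative arrays between, and GFP-positive arrays lowest. The difference was -1.22 ± 0.18 in GFP-positive cells, -1.26 in set 1 and -1.18 in set 2 (2.33-fold lower; adjusted p = 0.0023 with the block, 0.181 without). It was -0.60 ± 0.18 in GFP-negative cells, -0.93 in set 1 and -0.28 in set 2, and did not pass (adjusted p = 0.103 with the block). Leaving out any 1 array kept the GFP-positive call. For Grem1 the blocked p ran from 7.39e-05 to 0.168 in GFP-positive cells over those settings.

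Fst, which encodes follistatin, a tight binder of activin, had signals of 5131 and 1196 on the control arrays, 2187 and 1761 on the GFP-negative arrays and 1824 and 1098 on the GFP-positive arrays. Control replicate 1 was higher than any other array, and the differences of -0.80 and -0.34 did not pass. A second Fst probe set fell in GFP-positive cells, with a difference of -1.17, -1.68 in set 1 and -0.67 in set 2 (adjusted p = 0.0161 with the block, 0.432 without). Fstl1 and Fstl3, follistatin relatives, differed by -0.46 and 0.36 in GFP-positive cells and did not pass. Chrd, the BMP antagonist chordin, had signals of 280.5 and 114 on the control arrays, 228 and 147 on the GFP-negative arrays and 130.3 and 80.2 on the GFP-positive arrays and a difference of -0.67 in GFP-positive cells that did not pass.

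**Figure D3:**
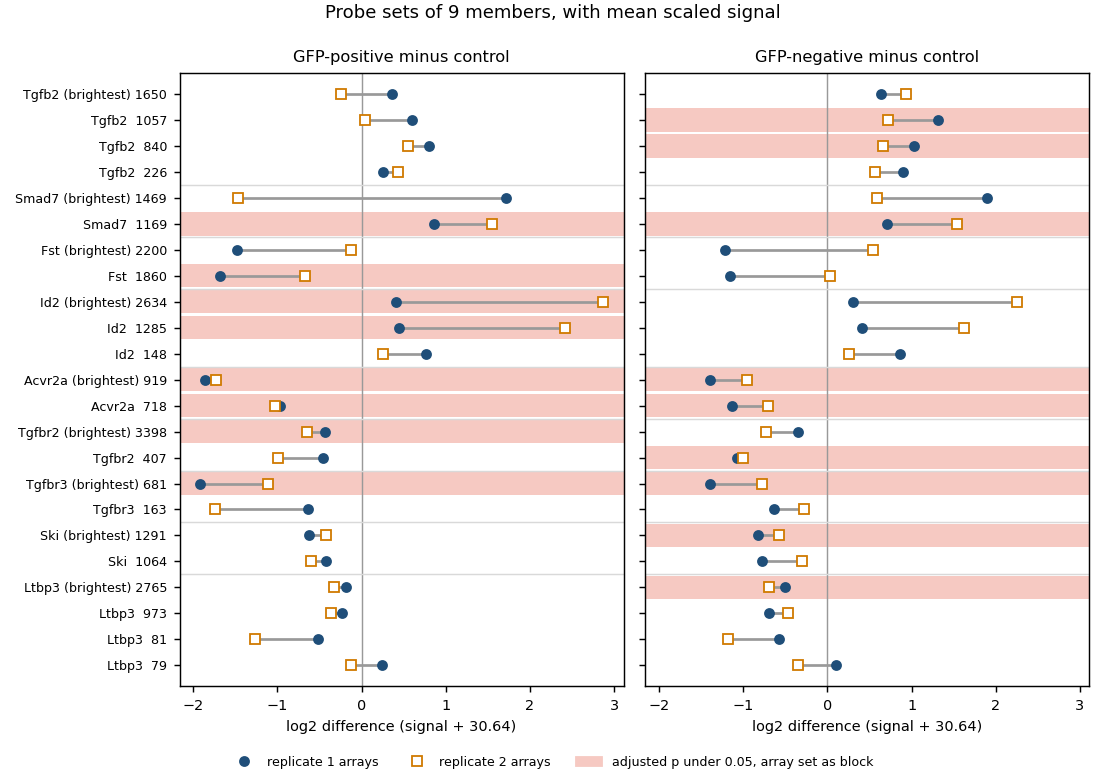
Log2 difference from control (x axis) of each probe set above the filter for 9 members (y axis, with its mean scaled signal), in GFP-positive (left) and GFP-negative (right) cells; filled circles are replicate 1 arrays, open squares replicate 2 arrays, and shaded bands mark probe sets that passed with the block. Both Acvr2a sets lie left of 0, whereas the brightest Smad7 set spans 1.72 to -1.47 in GFP-positive cells and its other set 0.85 to 1.55.

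Between the GFP-positive and GFP-negative cells, both treated and both sorted again, no member passed. The limma fit called 0 of 42 members and 0 of 27022 probe sets, with or without the block. At an unadjusted p under 0.05 there were 2 members without the block (4.76%, all probe sets 0.625%) and 5 with it (11.9%, all probe sets 5.75%). The groups did not overlap for 9 members (21.4%, all probe sets 20.6%). The median difference was -0.10, beside -0.0038 for all probe sets, and 15 of 42 members were above 0, beside 49.4% of all probe sets.

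In that comparison Acvr2a differed by -0.62, -0.47 in set 1 and -0.77 in set 2 (95% interval -1.03 to -0.22 with the block, adjusted p = 0.771). Grem1 differed by -0.62, -0.33 in set 1 and -0.90 in set 2 (-1.01 to -0.22), and Tgfb2 by -0.73, -0.27 in set 1 and -1.18 in set 2 (-1.17 to -0.28). The 5 tested antagonists all had values below 0, from -0.68 for Chrd to -0.16 for Fstl1, of which none passed. For Tgfbr3 the difference was -0.43 (-0.93 to 0.07). For Inhba the difference was -0.12 (-0.43 to 0.18), for Ltbp1 0.20 (-0.19 to 0.59) and for Id1 -0.05 (-0.62 to 0.53).

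**Figure D4:**
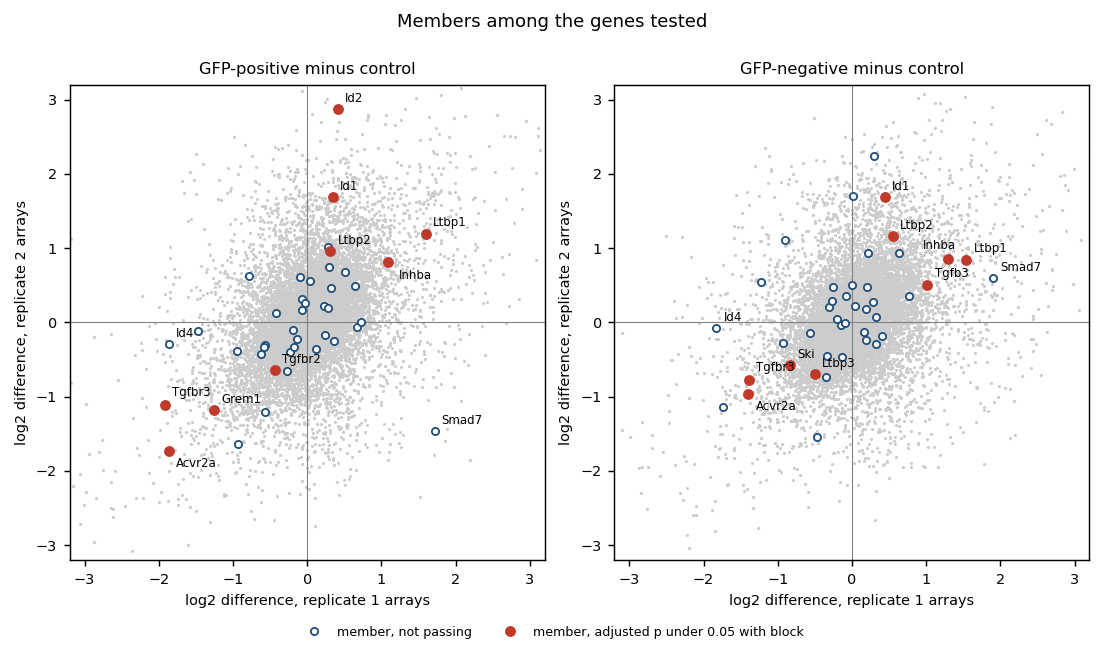
Log2 difference from control in replicate 1 arrays (x axis) against that in replicate 2 arrays (y axis) for the brightest probe set of each tested gene (grey), with members that passed with the block as filled red circles and other members as open blue circles; 40 genes in the GFP-positive and 19 in the GFP-negative panel lie beyond the axes. Acvr2a, Tgfbr3 and Grem1 lie far into the lower left of the GFP-positive panel, Ltbp1 and Inhba into the upper right, and Smad7 in the lower right.

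Genes known to respond to TGF-β were given as a list of 34, of which 33 had a probe set and all 33 were tested. With the block, 6 rose and 9 fell in GFP-positive cells, and 5 rose and 5 fell in GFP-negative cells. These are 45.5% and 30.3% of the list, beside 7.77% and 4.53% of the brightest probe sets of all genes and 6.21% and 3.57% of all probe sets. The list was chosen with earlier results of these data known, so these shares describe it and do not test it. Without a trend of the spread with signal the counts were 1 and 0, and without the filter the GFP-negative count was 6. Without the block the only call in either was Ccn3. The median difference was -0.20 and -0.08. The count for GFP-positive cells went from 15 to 6 without GFP-positive replicate 2, and that for GFP-negative cells from 10 to 4 and 5 without GFP-negative replicates 1 and 2.

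Among those that rose, Il11, a cytokine that TGF-β induces in fibroblasts, had signals of 112 and 153 on the control arrays, 508 and 875 on the GFP-negative arrays and 508 and 844 on the GFP-positive arrays. All treated arrays were far above both controls, and the difference was 2.09 in GFP-positive and 2.11 in GFP-negative cells (adjusted p = 0.000296 and 0.000394 with the block, 0.147 and 0.233 without). Pmepa1, a feedback inhibitor of TGF-β signalling, rose by 0.96 and 0.66 (adjusted p = 0.00107 and 0.0149 with the block, 0.189 and 0.622 without). Timp1, an inhibitor of matrix proteases, rose by 0.60 and 0.73 (adjusted p = 0.0106 and 0.00454 with the block, 0.895 and 0.9998 without). Klf10, an early TGF-β response factor, and Ccn1, a matrix signalling protein, rose in both groups and Junb, an AP-1 subunit, rose in GFP-positive cells. These 3 are named after their values were seen, and without the block their adjusted p was 0.311 to 0.797.

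Among those that fell, Ccn3, a matrix protein that TGF-β is known to repress, had signals of 15436 and 9777 on the control arrays, 709 and 376 on the GFP-negative arrays and 547 and 243 on the GFP-positive arrays. The difference was -4.95 and -4.49 (adjusted p = 0.0163 and 0.0391 without the block). Timp3, another protease inhibitor, fell, with differences of -1.06 and -0.72 (adjusted p = 0.000331 and 0.00567 with the block, 0.281 and 0.759 without). Named after their values were seen, Tgfbi, Eln and Col3a1 fell in both groups, and Col1a1, Col5a1, Lox and Snai2 fell in GFP-positive cells, with adjusted p of 0.293 to 0.9998 without the block. Tgfbi is named for its induction by TGF-β, Eln encodes elastin, the Col genes encode fibrillar collagens and Lox crosslinks them. The contractile genes did not pass in either group: Acta2 differed by 0.19 and -0.01, and Tagln by 0.18 and 0.08. The fibroblast markers, which share Col1a1, Col1a2 and Col3a1 with this list, had the lower summed signal in treated cells given above.

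**Figure D5:**
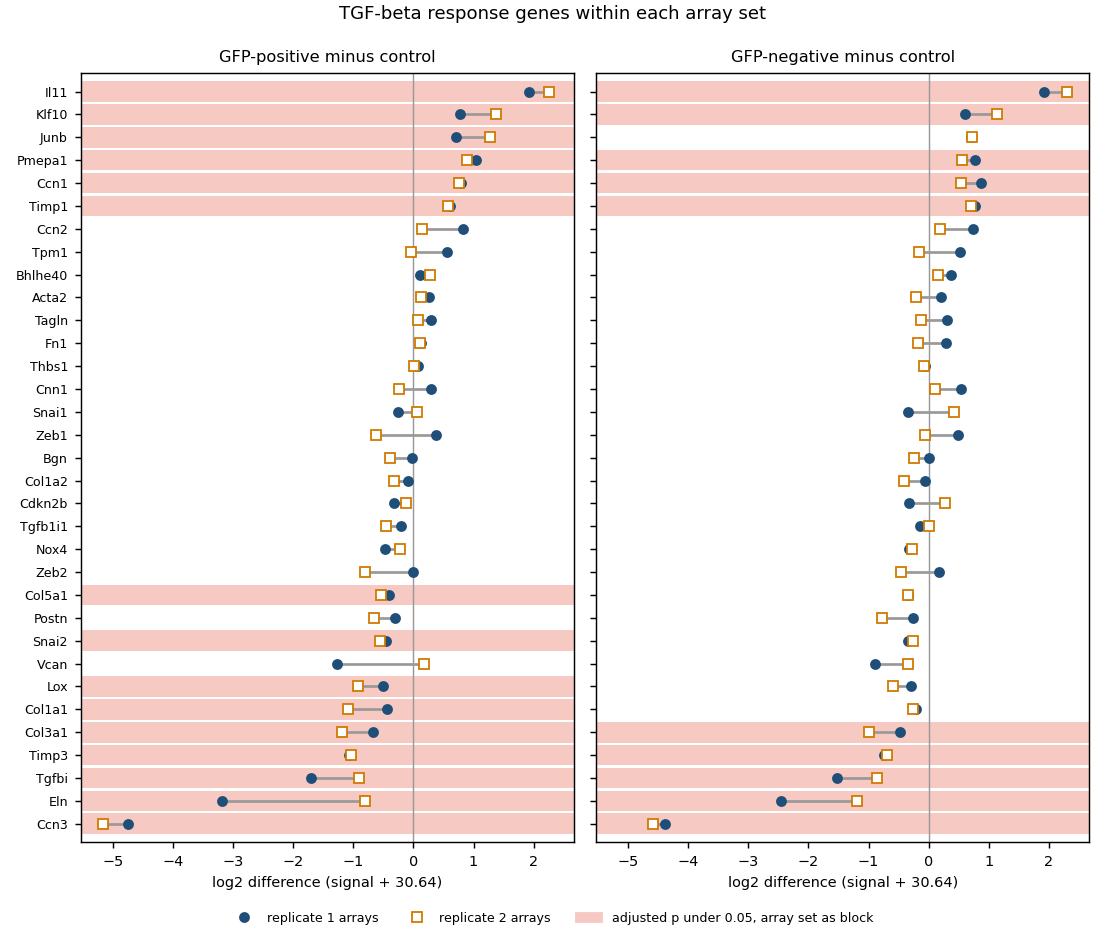
Log2 difference from control (x axis) of the 33 tested TGF-β response genes (y axis, in order of the difference in GFP-positive cells), in GFP-positive (left) and GFP-negative (right) cells; filled circles are replicate 1 arrays, open squares replicate 2 arrays, and shaded bands mark genes that passed with the block. Il11 stands at the upper end at 1.92 and 2.25 and Ccn3 at the lower end at -4.74 and -5.16 in GFP-positive cells.

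The remaining pathway lists held few calls. Of 12 BMP response genes beside the Id genes, 9 were tested and 0 passed in either comparison with or without the block. Of these, Msx2, a homeobox target of BMPs, differed by 0.59 and 0.92 with an SE of 0.30. Of 20 other ligands 10 were tested, and only Bmp8a passed with the block, in GFP-positive cells. Its signal was 29.3 and 6.20 on the control arrays, 176 and 90.3 on the GFP-negative arrays and 140.3 and 131 on the GFP-positive arrays. Both controls were below the filter, so it entered the test only through the treated arrays where it is high, and its call is not counted as a rise. Of 26 other extracellular modulators 14 were tested, 2 fell in both groups, and 1 rose in GFP-negative cells.

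Dcn, the proteoglycan decorin, which binds TGF-β, had signals of 12516 and 2957 on the control arrays, 2720.4 and 334 on the GFP-negative arrays and 1496 and 203 on the GFP-positive arrays. It fell, with differences of -3.36 and -2.61 (adjusted p = 6.69e-06 and 6.46e-05 with the block, 0.532 and 0.998 without). Fbn2, the microfibril protein fibrillin-2, to which latent complexes attach, fell, with differences of -2.60 and -2.35 (adjusted p = 0.000145 and 0.000434 with the block, 0.435 and 0.717 without). Crim1, a membrane protein that binds BMPs, rose by 1.38 in GFP-negative cells (adjusted p = 0.0117 with the block, 0.425 without). Of 24 other intracellular regulators 23 were tested, and Nedd4l, a ubiquitin ligase that targets phosphorylated Smads and receptors, rose by 0.64 in GFP-positive cells (adjusted p = 0.0493 with the block, 0.643 without). Between GFP-positive and GFP-negative cells 0 genes of any of these lists passed with or without the block.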

How the data were processed

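Total RNA of 6 mouse fibroblast samples was measured on Affymetrix arrays. The deposited table gives signal intensities on a linear scale, made with MAS5 per the submitters' processing notes (version and settings not given in the sources used here). It held 45101 probe sets, and 64 control probe sets were left out. Gene symbols came from the platform annotation: 34945 probe sets had 1 symbol, 932 several and 9160 none, and 0 symbols needed updating.

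Arrays were brought to a common 2% trimmed mean of 500. The offset of 30.64 is the median over arrays of the lower quartile. Probe sets were tested if their mean signal reached the 40th percentile of such means, 67.71. Groups were taken from the labels. The model was fitted with limma 3.58.1 in R 4.3.3: all 6 arrays, two-sided moderated tests with a trend of the variance on the mean, and Benjamini-Hochberg adjustment over 27022 probe sets. This left 3 residual degrees of freedom, or 2 with the replicate number as a block. The number of arrays limits the precision. Arrays with the same replicate number deviated together from their group means over the tested probe sets, with correlations of 0.51, 0.51 and 0.56 for the 3 pairs of groups, so the blocked values are given beside the others. The fits were checked on simulated data for recovery of known differences. The spread there was not tied to signal, so the check does not cover the trend that the block calls rest on.

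The members and lists were chosen with earlier results of these data known. Values on every array are given for members called in any comparison and for the 10 per comparison with the largest difference of 1 sign in both sets. For lists, up to 4 genes of smallest p were set to be named, and values on every array are given for some of these. As alternatives, the fits were run with median centring, quantile normalization, other offsets, filters and thresholds, no trend, the replicate block, only the groups compared, other choices of probe set, and leaving out each array. The block together with each of these, and a fit without both rescaled arrays, were added after the data had been seen. Promoters are RefSeq windows on build GRCm38.p6.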

Additional observations from a re-analysis of the deposited data

How the results depend on the processing

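With the replicate number as a block, the count of members called was 9 in GFP-positive and 9 in GFP-negative cells against control, and with quantile normalization as well 9 and 8. Without the block it was 0 in both, and 0 for every array left out in turn. It was 1 for GFP-positive cells at an adjusted p under 0.10, and 1 in each comparison without both rescaled arrays. With the block, the GFP-positive count of 9 became 5 with the offset divided by 4, 5 with no filter, 0 without a trend and 14 at an adjusted p under 0.10, and ran from 5 to 12 with 1 array left out. The GFP-negative count of 9 became 0 without a trend and ran from 5 to 11 with 1 array left out. In both comparisons the 5 came without replicate 2 of the treated group. Between GFP-positive and GFP-negative cells the count was 0 in every setting run. With no filter, Tgfb3, Id1 and Ltbp3 lost their blocked calls in GFP-negative cells. Of the TGF-β response genes called with the block, 15 in GFP-positive and 10 in GFP-negative cells, 1 and 0 were left without a trend. Of 1134 values of named members under the alternatives, 11 turned direction under planned ones and 5 under added ones. Ltbp2 in GFP-positive cells ran from -0.0943, without control replicate 2, to 1.37 over the unblocked fits with 1 array left out, and Smad7 in GFP-negative cells from -0.16, without GFP-negative replicate 1, to 2.65. The others that turned were between GFP-positive and GFP-negative cells, where no member passed. Smad7 was at 0.0839 without probe sets whose names end in _x_at, _s_at or _a_at, with or without the block. It was at 0.28 without GFP-negative replicate 1. With 1 array left out it ran from -3.46 to 1.22, the latter without GFP-positive replicate 2, where it was at 0.14 with the block. Id2, whose brightest probe set ends in _a_at, was at -0.0523 without probe sets of those endings, with or without the block. With 1 array left out Id2 ran from -0.24 without GFP-positive replicate 2, where it was at -0.38 with the block, to 0.972. Fst was at 0.0816 with the block without GFP-negative replicate 2, Tgfb3 ran from -0.992 to 0.0764, without GFP-positive replicate 2, and Tgfbr3 from -0.865 to 0.0065, without GFP-negative replicate 1. Ltbp3 ran from -0.0556, without GFP-negative replicate 2, to 0.736, and was at -0.03 without GFP-positive replicate 1. The cause of these changes was not tested. With 2 arrays a group, a difference that did not pass was not detectable at this precision, which does not show that it is absent.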
